A study of Mus musculus with 15 samples.

Results

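The genes described here are 8 members of the tricarboxylic acid (TCA) cycle enzyme set and Acod1, which encodes the enzyme that makes itaconate. They were chosen by name: the rows of the deposited count matrix whose mouse Ensembl identifier carries the symbol Cs, Idh1, Idh2, Idh3a, Ogdh, Sucla2, Fh1, Mdh2 or Acod1. These are 9 of the 53465 genes in the matrix, each symbol matched 1 identifier, and all 9 passed the filter on low counts that left 13938 genes for testing. Bone marrow-derived macrophages (BMDMs) were grown from mouse marrow for 7 days in medium with 20 ng/ml M-CSF, the growth factor that drives macrophage differentiation. They were then left without added cytokine (control) or cultured for 24 h with 10 ng/ml IL-4, with 10 ng/ml IL-4 and 40 ng/ml IL-6, with 40 ng/ml IL-13, or with 40 ng/ml IL-13 and 40 ng/ml IL-6. Each of these 5 groups held 3 libraries, 15 in all. The labels of these libraries give no genotype, sex or age, and do not say whether the 3 replicates of a group came from separate animals, so the p-values below measure the spread between these libraries. That spread was estimated from all 5 groups together. No group received IL-6 alone, so every value for IL-6 is for its addition to IL-4 or to IL-13.

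The TCA cycle joins acetyl-CoA to oxaloacetate in the mitochondrial matrix and returns oxaloacetate after a series of oxidations that feed electrons to the respiratory chain. Citrate synthase opens it, isocitrate dehydrogenases and the 2-oxoglutarate dehydrogenase complex carry out the oxidative decarboxylations, and succinyl-CoA synthetase, succinate dehydrogenase, fumarase and malate dehydrogenase close it. In macrophages the cycle has a side branch: ACOD1 (also called IRG1) decarboxylates cis-aconitate to itaconate, which inhibits succinate dehydrogenase, and macrophages given LPS or interferon-γ induce Acod1 strongly. Macrophages given IL-4 are known for running an intact cycle with oxidative phosphorylation.

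The summed counts ran from 17001350 to 18918690 per library. The marker genes of macrophages (Adgre1, Csf1r, Cd68, Itgam, Mertk and Fcgr1) were all detected in every group, and their summed level ran from 4617 to 5642 CPM (counts scaled to library size) over the 15 libraries, but single markers moved: Mertk, a receptor for the uptake of dying cells, had 132, 139 and 156 CPM in control and 7.15 to 18.8 in the treated libraries, and Fcgr1, the high-affinity IgG receptor, 152, 158 and 154 in control and 465, 415 and 556 with IL-13/IL-6. Socs3, a feedback inhibitor induced by IL-6, had means of 1.69 ± 0.492 normalized CPM (SD, n = 3) with IL-4 and 129 ± 12.5 with IL-4/IL-6. Most markers of other marrow cells were higher in control than in the treated groups. The 8 neutrophil and precursor genes summed to 358 to 426 CPM in control and 10.9 to 26.1 CPM in the 12 treated libraries, and the 3 megakaryocyte genes to 273 to 305 against 2.05 to 6.48 CPM. The neutrophil collagenase Mmp8 was an exception, with 22.1, 23.6 and 22.2 CPM in control and 22.96, 25.02 and 23.7 with IL-4. The dendritic cell, B cell, mast cell and basophil, and stromal lists summed to at most 20.1 CPM in control and were lower still in each treated group, the stromal genes Col1a1, Col1a2, Col3a1 and Dcn all being at 0 with IL-4. The T cell and erythroid lists summed to at most 0.887 CPM in any library. These values stand beside every comparison with control below, and their part in it was not tested. In such bulk RNA, fewer cells of a type and less RNA per cell cannot be told apart. Replicates varied most with IL-4/IL-6, where the biological coefficient of variation was 15.1%, and with IL-13, at 11.1%, against 4.54% in control, 4.57% with IL-4 and 7.41% with IL-13/IL-6. IL-4/IL-6 replicate 2 and IL-13 replicate 1 stood apart from the other libraries of their groups, with levels that fell with gene length, by 0.0784 and 0.0675 on the log2 scale per doubling of length, so the calls of members on adding IL-6 are also given without them.

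All 9 genes lie on autosomes. In the GENCODE annotation of GRCm38, the build named in the submitters' processing notes, they span chr10:128337734-128362479 for Cs, chr1:65158616-65186500 for Idh1, chr7:80094846-80115392 for Idh2, chr9:54586334-54604661 for Idh3a, chr11:6291633-6356642 for Ogdh, chr14:73525319-73596142 for Sucla2, chr1:175600374-175625635 for Fh1, chr5:135778480-135790398 for Mdh2 and chr14:103046977-103056573 for Acod1. None shares an exonic base with another annotated gene. Of the stretches of 50 bases in their transcripts, 2.01% of those of Cs also occur in Csl, a copy of it, and none of those of the other 8 occur in the transcripts of another gene.

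Windows from 250 bases before to 50 after the transcript start were taken from RefSeq (GRCm38.p6), which held at least 1 for 8 of the 9 genes and none for Idh3a. Both strands were searched for the STAT-type pairs TTCNNNGAA and TTCNNNNGAA, which 8.298% and 6.95% of all 32851 windows hold, the estrogen-related receptor half-site AAGGTCA (4.72%), the NRF1 core GCGCANGCG (6.25%) and the NF-κB-type site GGGNNTTCC (5.82%). The TTCNNNGAA pair was in no member's window, and TTCNNNNGAA was in that of Fh1 only. AAGGTCA was in 1 of 6 windows of Ogdh, the NRF1 core in 2 others of Ogdh, which overlap and share the match, and in the window of Sucla2, and GGGNNTTCC in 1 of 2 windows of Idh1. Cs, Idh2, Mdh2 and Acod1 held none of these. The windows shown are those of the pair of genes that fell most and of the single member with a STAT-type match. For Idh1 only the window with the match is shown. Its other window, chr1:65186430-65186729, had no match and holds the 5′ end of the gene span given above. Capitals mark the match, and each sequence runs 5′ to 3′ on the gene's strand.
Acod1, chr14:103046762-103047061, plus strand, no match: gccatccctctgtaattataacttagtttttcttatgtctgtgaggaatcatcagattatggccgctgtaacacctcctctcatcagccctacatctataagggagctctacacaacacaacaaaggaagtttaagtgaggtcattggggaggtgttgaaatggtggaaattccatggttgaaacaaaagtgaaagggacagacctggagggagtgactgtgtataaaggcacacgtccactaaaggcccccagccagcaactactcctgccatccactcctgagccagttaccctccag
Idh1, chr1:65179093-65179392, minus strand, GGGNNTTCC match: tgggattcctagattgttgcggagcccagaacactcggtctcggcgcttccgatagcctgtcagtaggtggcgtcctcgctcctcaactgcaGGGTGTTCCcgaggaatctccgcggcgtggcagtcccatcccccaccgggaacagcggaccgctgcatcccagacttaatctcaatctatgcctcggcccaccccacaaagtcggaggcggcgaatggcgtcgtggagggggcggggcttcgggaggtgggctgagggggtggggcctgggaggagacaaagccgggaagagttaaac
Fh1, chr1:175625586-175625885, minus strand, TTCNNNNGAA match: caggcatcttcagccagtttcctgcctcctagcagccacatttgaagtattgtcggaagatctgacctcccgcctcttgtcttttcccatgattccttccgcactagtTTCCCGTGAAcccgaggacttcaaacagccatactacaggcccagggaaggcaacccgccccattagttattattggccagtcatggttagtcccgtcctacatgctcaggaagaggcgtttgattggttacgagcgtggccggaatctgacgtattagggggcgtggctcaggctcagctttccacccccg
A match is a description of the letters only, and these libraries carry no measure of binding.

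Compared per unit of length, the members differed widely in level. In control BMDMs the deposited FPKM (fragments scaled to gene length and library size) placed Idh1, the cytosolic and peroxisomal NADP-dependent isocitrate dehydrogenase, far above the others at 177, 185 and 183 FPKM in the 3 libraries. Mdh2 and Cs followed with means of 42.6 and 41.9 FPKM and overlapping replicates, then Ogdh at 40.2, Idh2 at 29.97 FPKM, Fh1 at 18.5, Acod1 at 16.9, Sucla2 at 16.01 and Idh3a at 8.20 FPKM. With IL-4 the order was another: Mdh2 led at 71.3 FPKM (mean; SD 2.73, n = 3), Idh1 and Idh2 followed at 60.9 and 57.5 FPKM with overlapping replicates, and Acod1 was last at 1.14 FPKM. Mdh2 was also first with IL-4/IL-6 at 93.9 ± 8.93 FPKM, and its replicates there overlapped those of no other member.

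**Figure D1:**
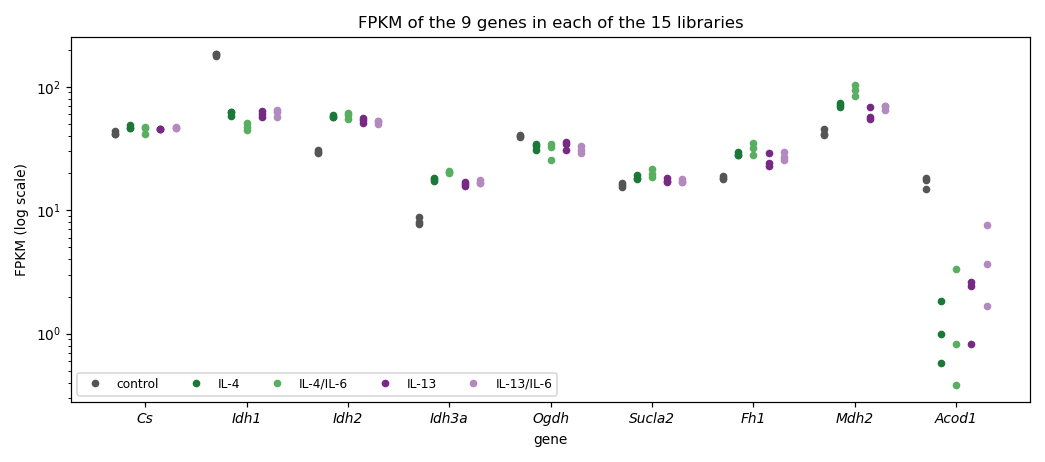
FPKM of the 9 genes on a log axis, 1 point per library and 1 color per group (n = 3). Idh1 is the highest in control and falls toward the level of Idh2 in the 4 treated groups, Mdh2 is the highest with IL-4/IL-6, and Acod1 falls from 16.9 FPKM in control to 1.14 FPKM with IL-4.

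The first comparison asks how IL-4 alone changed these genes. Idh1 and Acod1 fell, Idh3a, Idh2, Mdh2 and Fh1 rose, and Cs, Sucla2 and Ogdh changed by 1.19-fold at most: 6 of the 9 were called higher and 3 lower at an adjusted p under 0.05. So many genes changed under IL-4 that the count says little, since 68% of all 13938 genes tested were called, 32.1% higher and 35.9% lower. The median log2 fold change was 0.25 over the members and -0.05 over all genes tested, and the sizes below carry the description.

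Acod1 had 37.00, 44.6 and 45.8 normalized CPM in the control libraries, 2.57, 1.49 and 4.80 with IL-4 and 6.75, 6.14 and 2.11 with IL-13. All treated libraries lay below all control libraries, which held 710 to 817 raw counts, while the treated ones held 19 to 366. The fitted level was 14.3-fold lower with IL-4 (log2 fold change -3.84, SE 0.59, adjusted p = 1.97e-05) and 8.53-fold lower with IL-13 (log2 fold change -3.09, SE 0.55, adjusted p = 0.000114). These sizes depended on single libraries. With IL-4 the decrease was 11.2-fold without IL-4 replicate 2 and 20.1-fold without IL-4 replicate 3. With IL-13 it was 6.52-fold without IL-13 replicate 3 and 10.2-fold without IL-13 replicate 1. Of the 9 members Acod1 had the widest spread between replicates, relative to its mean, in each treated group. Genes of classical macrophage activation, the state in which Acod1 is known to be induced, differed widely in level. Irf1, an interferon-induced transcription factor, ran from 35.3 to 51.6 CPM and Tnf from 8.31 to 35.1 CPM over the 15 libraries. Nos2, the inducible nitric oxide synthase, did not pass the filter and was at 0 in every control library. Il1b had 1.56, 1.33 and 1.01 CPM in control and 0.214, 0.166 and 1.20 with IL-4. In 3 treated groups, replicate 3 held the most raw counts of Acod1, Nos2 and Il1b alike. These were 88, 2 and 22 with IL-4, 156, 23 and 28 with IL-4/IL-6, and 366, 11 and 57 with IL-13/IL-6. With IL-13, Acod1 was highest in replicate 1 (126), Il1b in replicate 2 (14) and Nos2 in replicate 3 (4). The cause of this spread was not tested.

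Idh1 had 467, 496 and 483 CPM in control, 171, 157 and 173 with IL-4 and 157, 169.9 and 162 with IL-13. The treated and control libraries did not overlap, and the IL-4 and IL-13 libraries covered nearly the same range. The level was 2.88-fold lower with IL-4 (log2 fold change -1.53, SE 0.07, adjusted p = 1.45e-11) and 2.96-fold lower with IL-13 (log2 fold change -1.56, SE 0.08, adjusted p = 1.79e-11). Its mitochondrial counterpart Idh2, which makes NADPH from isocitrate in the matrix, moved the other way, from 73.1, 77.4 and 72.4 CPM in control to 145, 146 and 151 with IL-4 and 144, 128 and 136 with IL-13. Idh2 was 1.98-fold higher with IL-4 (log2 fold change 0.99, SE 0.07, adjusted p = 2.3e-09) and 1.83-fold higher with IL-13 (log2 fold change 0.87, SE 0.07, adjusted p = 1.6e-08).

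Idh3a encodes the catalytic α subunit of the NAD-dependent isocitrate dehydrogenase that runs the cycle. It had 42.9, 37.8 and 38.8 CPM in control, 86.96, 91.2 and 89.4 with IL-4 and 85.6, 80.5 and 78.1 with IL-13, with no overlap between control and treated libraries. The rise was 2.24-fold with IL-4 (log2 fold change 1.16, SE 0.07, adjusted p = 1.99e-10) and 2.04-fold with IL-13 (log2 fold change 1.03, SE 0.07, adjusted p = 1.32e-09), the largest increase of any member in both comparisons. The β and γ subunits of the same enzyme were not called higher with it in the fit of all 15 libraries. Idh3b was not called with IL-4 (log2 fold change 0.07, SE 0.07, adjusted p = 0.355). Idh3g was not called with IL-4 (log2 fold change -0.18, SE 0.09, adjusted p = 0.082) and fell with IL-13 (log2 fold change -0.38, SE 0.09, adjusted p = 0.00118). In a fit of the control and IL-4 libraries alone, all 21 TCA cycle genes were called, Idh3b and Idh3g included.

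Fumarase and mitochondrial malate dehydrogenase, which act at the end of the cycle, rose too. Mdh2, the mitochondrial malate dehydrogenase, had 155, 141 and 139.6 CPM in control, 243, 248 and 263 with IL-4 and 239.7, 191 and 196 with IL-13, a rise of 1.73-fold (log2 fold change 0.79, SE 0.10, adjusted p = 1.96e-06) and 1.44-fold (log2 fold change 0.52, SE 0.10, adjusted p = 0.000196). Fh1, fumarase, had 61.5, 59.2 and 59.2 CPM in control, 93.7, 99.8 and 94.95 with IL-4 and 98.3, 74.8 and 79.3 with IL-13, where replicate 1, the library that stood apart, was the highest. Fh1 was 1.60-fold higher with IL-4 (log2 fold change 0.68, SE 0.11, adjusted p = 3.24e-05) and 1.40-fold higher with IL-13 (log2 fold change 0.49, SE 0.11, adjusted p = 0.000938).

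The other 3 members moved little. Cs, citrate synthase, had 239, 230.2 and 227 CPM in control, 279, 262 and 266 with IL-4 and 258, 255 and 256 with IL-13, and its small rises passed the test with IL-4 (log2 fold change 0.21, SE 0.05, adjusted p = 0.0017) and IL-13 (log2 fold change 0.14, SE 0.05, adjusted p = 0.0263), although the latter was lost with summed counts only (adjusted p = 0.097) and without control replicate 2 (0.06) or 3 (0.083). Sucla2, the ATP-forming β subunit of succinyl-CoA synthetase, had 60.9, 64.2 and 58.5 CPM in control and 70.00, 72.1 and 76.5 with IL-4, a 1.19-fold rise (log2 fold change 0.25, SE 0.08, adjusted p = 0.0101), and with IL-13 it was not called (log2 fold change 0.15, SE 0.08, adjusted p = 0.109), although it passed in a fit of those groups alone and when any 1 of 4 libraries of other groups was left out (adjusted p from 0.011 to 0.049). Ogdh, the E1 subunit of the 2-oxoglutarate dehydrogenase complex, had 213, 209 and 209 CPM in control, 178, 184 and 166 with IL-4 and 166, 181 and 189.6 with IL-13. All treated libraries lay below control, by 1.19-fold with IL-4 (log2 fold change -0.25, SE 0.08, adjusted p = 0.00801) and 1.17-fold with IL-13 (log2 fold change -0.23, SE 0.08, adjusted p = 0.017). The call of Ogdh with IL-4 was lost without a filter on low counts (log2 fold change -0.18, adjusted p = 0.074) and without IL-4 replicate 3 (-0.17, adjusted p = 0.11). With IL-13 it was lost without a filter (-0.17, adjusted p = 0.095) and in 8 of the 15 fits that left out 1 library (adjusted p from 0.052 to 0.16), with the highest p and the smallest change without IL-13 replicate 1 (-0.15).

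With IL-13, 5 of the 9 members were called higher and 3 lower, while 60.1% of all genes tested were called, 29% higher and 31.1% lower, and the median log2 fold change was 0.15 over the members and -0.02 over all genes. IL-4 and IL-13 signal through the same receptor chain, and the direct comparison of both asks whether they differed in these genes. No member was called (edgeR), 1 of the 9 had an unadjusted p under 0.05, and 12.8% of all genes were called. The fitted differences of IL-4 from IL-13 lay between -0.75 for Acod1 (95% interval -2.04 to 0.54) and 0.27 for Mdh2 (0.07 to 0.46) on the log2 scale. For Idh1 the difference was 0.03 (95% interval -0.11 to 0.18). The doses of IL-4 and IL-13 were not the same, so this compares the groups as treated.

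**Figure D2:**
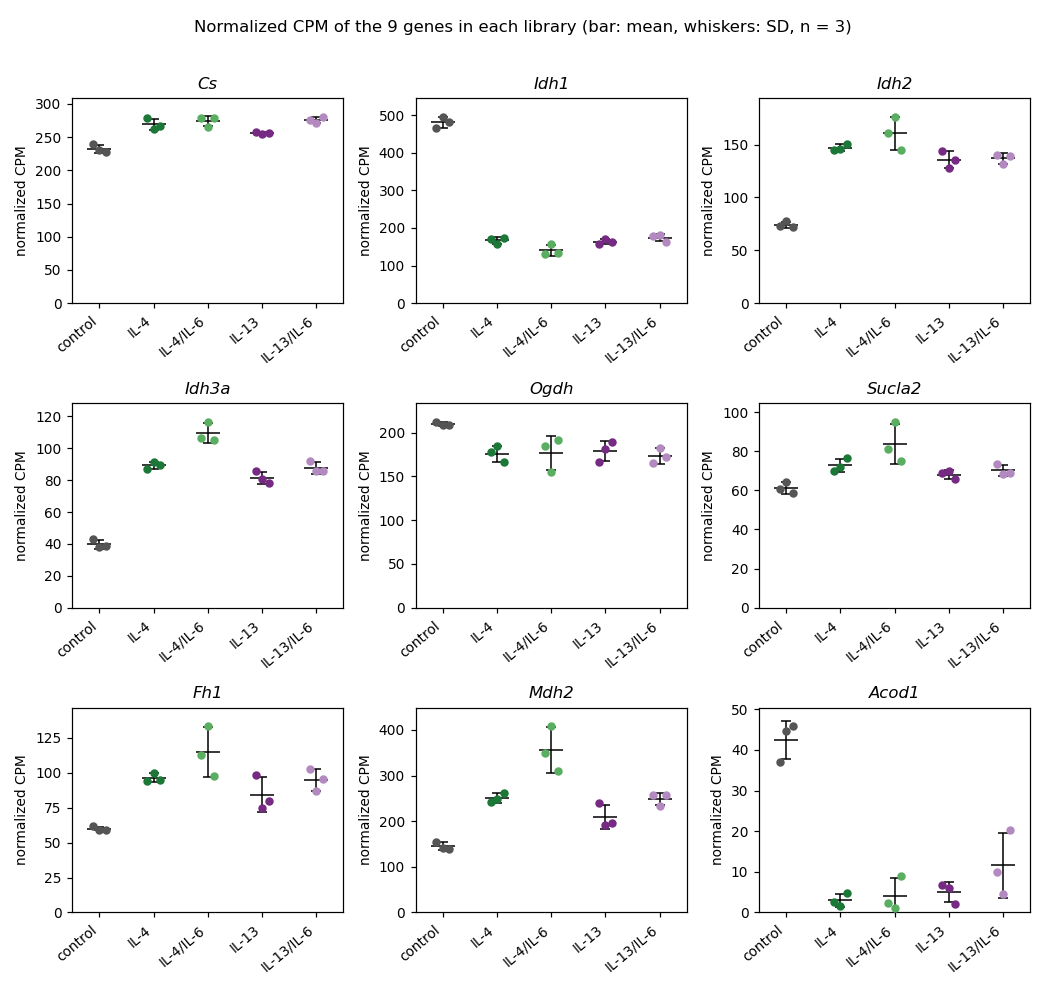
Normalized CPM of each of the 9 genes by group, with 1 point per library, a bar at the mean and whiskers of 1 SD (n = 3), on axes that start at 0. Idh1, Ogdh and Acod1 lie lower in all 12 treated libraries than in the 3 control libraries, and Cs, Idh2, Idh3a, Sucla2, Fh1 and Mdh2 lie higher.

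The next comparison asks what IL-6 changed when added together with IL-4. Mdh2 and Idh3a rose further, Idh1 fell further, and the other 6 members were not called, which is 2 higher and 1 lower of 9 where 39.4% of all genes tested were called, 20.7% higher and 18.7% lower. Under summed counts alone the split of calls over all genes moved from 52.6% to 37.97% higher, and these 3 calls were kept. The median log2 fold change was 0.20 over the members and 0.04 over all genes.

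Mdh2 rose from 243, 248 and 263 CPM with IL-4 to 350.2, 408 and 309 with IL-4/IL-6, so that all 3 co-treated libraries lay above the IL-4 libraries. The rise was 1.42-fold (log2 fold change 0.50, SE 0.10, adjusted p = 0.000465) and stayed called without IL-4/IL-6 replicate 2, which had the highest value (log2 fold change 0.38, adjusted p = 0.0017). Idh3a rose from 86.96, 91.2 and 89.4 to 107, 117 and 105 CPM, again without overlap (log2 fold change 0.30, SE 0.07, adjusted p = 0.00192), and without replicate 2 the log2 fold change was 0.23 (adjusted p = 0.0092). Idh1 went from 171, 157 and 173 to 130.1, 157 and 134 CPM, where the highest co-treated library, replicate 2, reached the lowest IL-4 library. Its decrease was 1.19-fold (log2 fold change -0.25, SE 0.07, adjusted p = 0.0126), and without replicate 2 the log2 fold change was -0.35 (adjusted p = 0.00024).

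Sucla2 and Fh1 fell short of the threshold. Sucla2 had 81.3, 95.1 and 75.1 CPM with IL-4/IL-6 (log2 fold change 0.20, SE 0.08, adjusted p = 0.0528) and Fh1 had 113, 133 and 97.6 (log2 fold change 0.25, SE 0.11, adjusted p = 0.0723), with replicate 2 the highest library of both genes. Both were called without IL-4/IL-6 replicate 3 (Sucla2 0.26, adjusted p = 0.014, and Fh1 0.34, adjusted p = 0.015). Without replicate 2 both changes were smaller and neither was called (Sucla2 0.088, adjusted p = 0.343, and Fh1 0.12, adjusted p = 0.381). With each library's trend with gene length removed, both were called (Sucla2 0.22, adjusted p = 0.025, and Fh1 0.26, adjusted p = 0.030). Fh1 was also called without IL-13 replicate 1 (0.23, adjusted p = 0.046). Idh2 had 161, 176 and 145 CPM (log2 fold change 0.13, SE 0.07, adjusted p = 0.165), and without replicate 2 its log2 fold change was 0.043. Cs and Ogdh gave log2 fold changes of 0.03 (95% interval -0.08 to 0.13) and 0.01 (-0.14 to 0.16), and the sign of both changed under other scalings. Acod1 had 2.27, 1.12 and 8.98 CPM with IL-4/IL-6, and its fitted difference from IL-4 depended on single libraries: it was 0.48 (adjusted p = 0.618) with all 3, 0.91 (adjusted p = 0.275) without replicate 2 and -0.81 (adjusted p = 0.39) without replicate 3.

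With IL-13 in place of IL-4, no member was called on adding IL-6 (edgeR), 2 of 9 had an unadjusted p under 0.05, and 25.6% of all genes tested were called, 12.1% higher and 13.5% lower. DESeq2 also called none. Mdh2 had 239.7, 191 and 196 CPM with IL-13 and 257, 234 and 257 with IL-13/IL-6, 1 IL-13 library overlapping (log2 fold change 0.26, SE 0.10, adjusted p = 0.065). That library was replicate 1, and without it Mdh2 was called (0.36, adjusted p = 0.0071), as was Fh1 (0.29, adjusted p = 0.039). Mdh2 was also called without IL-4/IL-6 replicate 2 (adjusted p = 0.025) or 3 (0.038), without the filter on low counts (0.0073) and with the length trend removed (0.024). Acod1 had 9.89, 4.45 and 20.4 CPM with IL-13/IL-6, the widest spread of any member in that group relative to its mean. It was 2.32-fold higher on the fitted scale without passing the test (log2 fold change 1.22, SE 0.57, adjusted p = 0.138). It passed without IL-13/IL-6 replicate 2 (1.60, adjusted p = 0.047) or without the filter on low counts. Without IL-13/IL-6 replicate 3, the highest library, it was 1.42-fold higher (0.51, adjusted p = 0.635). The other 6 members gave log2 fold changes between -0.05 for Ogdh and 0.11 for Idh3a, and Fh1 gave 0.17 (adjusted p = 0.281).

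Whether the IL-6 effect differed between the IL-4 and IL-13 backgrounds was tested as an interaction. No member passed (edgeR), 1 had an unadjusted p under 0.05, and 7.64% of all genes were called. That member was Idh1, whose log2 fold change on adding IL-6 was -0.25 with IL-4 and 0.10 with IL-13, a difference of -0.35 (SE 0.10, adjusted p = 0.0542). Idh1 passed in DESeq2 (adjusted p = 0.023), with no scaling beyond the summed counts (0.019) and without IL-4/IL-6 replicate 2 (0.0023), so that its call turned on the setting. For Mdh2 the difference was 0.25 (95% interval -0.02 to 0.52) and for Idh3a 0.19 (-0.00 to 0.37).

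Between the groups with both cytokines, 5 of 9 members were called where 31.3% of all genes were: in IL-4/IL-6 over IL-13/IL-6, Mdh2 (log2 fold change 0.51, SE 0.10, adjusted p = 0.000622), Idh3a (0.32), Sucla2 (0.26) and Idh2 (0.23) were higher, and Idh1 was lower (log2 fold change -0.31, SE 0.07, adjusted p = 0.00394). Without IL-4/IL-6 replicate 2, 3 members were called.

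Against control, all 9 members were called with IL-4/IL-6 (72.9% of all genes) and with IL-13/IL-6 (64% of all genes), in the directions that IL-4 alone gave. These comparisons share the control libraries with those above, so they add the size only. Mdh2 was 2.45-fold and 1.72-fold above control, Idh3a 2.75-fold and 2.2-fold, and Idh2 2.16-fold and 1.85-fold. Idh1 was 3.43-fold and 2.76-fold below it, and Acod1 10.3-fold and 3.67-fold. The sizes for Acod1 rested on 1 library each, being 24.9-fold without IL-4/IL-6 replicate 3 and 5.84-fold without IL-13/IL-6 replicate 3. Sucla2 was no longer called with IL-13/IL-6 under upper-quartile factors, summed counts only or a filter of 1 CPM, nor without control replicate 1 or 3 or IL-13/IL-6 replicate 1 (adjusted p from 0.052 to 0.21). Cs lost its call with IL-4/IL-6 under summed counts only (adjusted p = 0.15), and Ogdh lost its calls without IL-4/IL-6 replicate 2 (adjusted p = 0.086) and without IL-13/IL-6 replicate 1 (adjusted p = 0.057).

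In the order of the 5 groups, IL-4/IL-6 had the highest mean for Idh2, Idh3a, Sucla2, Fh1 and Mdh2 and the lowest for Idh1, and control had the lowest mean for these 5 and the highest for Idh1, Ogdh and Acod1. Among those 5, IL-4/IL-6 was clear of the next group, IL-4, in every library for Idh3a and Mdh2 only. For Idh1 it lay below every library of the next group, IL-13, by less than 1 CPM. IL-4 and IL-13/IL-6 stood next to each other, with overlapping replicates, for Idh1, Idh3a, Ogdh, Sucla2, Fh1 and Mdh2. For Ogdh the 4 treated groups all overlapped, with means from 173 ± 9.05 to 179 ± 11.7 CPM (± SD). For Acod1 they overlapped too, in the order IL-13/IL-6, IL-13, IL-4/IL-6 and IL-4.

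A ratio of 2 genes within a library does not depend on the scaling between libraries. The FPKM ratio of cytosolic Idh1 to mitochondrial Idh2 was 6.06 in control (geometric mean; 5.97 to 6.23 over the 3 libraries). It was 1.06 with IL-4 (1.01 to 1.10), 0.816 with IL-4/IL-6 (0.756 to 0.863), 1.12 with IL-13 (1.02 to 1.24) and 1.19 with IL-13/IL-6 (1.09 to 1.30). The ratio thus dropped to near parity in every treated group, and the libraries below 1 were the 3 with IL-4/IL-6.

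The malate dehydrogenases shifted in the same way, and here IL-6 added a step in both backgrounds. The ratio of cytosolic Mdh1 to mitochondrial Mdh2 was 1.80 in control, 1.11 with IL-4 and 0.586 with IL-4/IL-6 (0.549 to 0.648), and 1.27 with IL-13 and 0.846 with IL-13/IL-6 (0.773 to 0.892). Libraries with IL-6 overlapped neither those without it nor control. Of the β subunits of succinyl-CoA synthetase, the ratio of ATP-forming Sucla2 to GTP-forming Suclg2 was 3.01 in control, 2.21 with IL-4 and 1.41 with IL-4/IL-6, 2.02 with IL-13 and 1.56 with IL-13/IL-6, again without overlap between libraries with and without IL-6. Of the 50-base stretches of Suclg2, 15.96% also occur in the pseudogene Gm15163, so its level is less certain than that of the members. The ratio of Idh3a to Idh3b was 0.196 in control and 0.414 to 0.458 in the treated groups, and Idh3a to Idh3g was 0.185 and 0.469 to 0.575. The ratios are given as a description and were not tested.

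**Figure D3:**
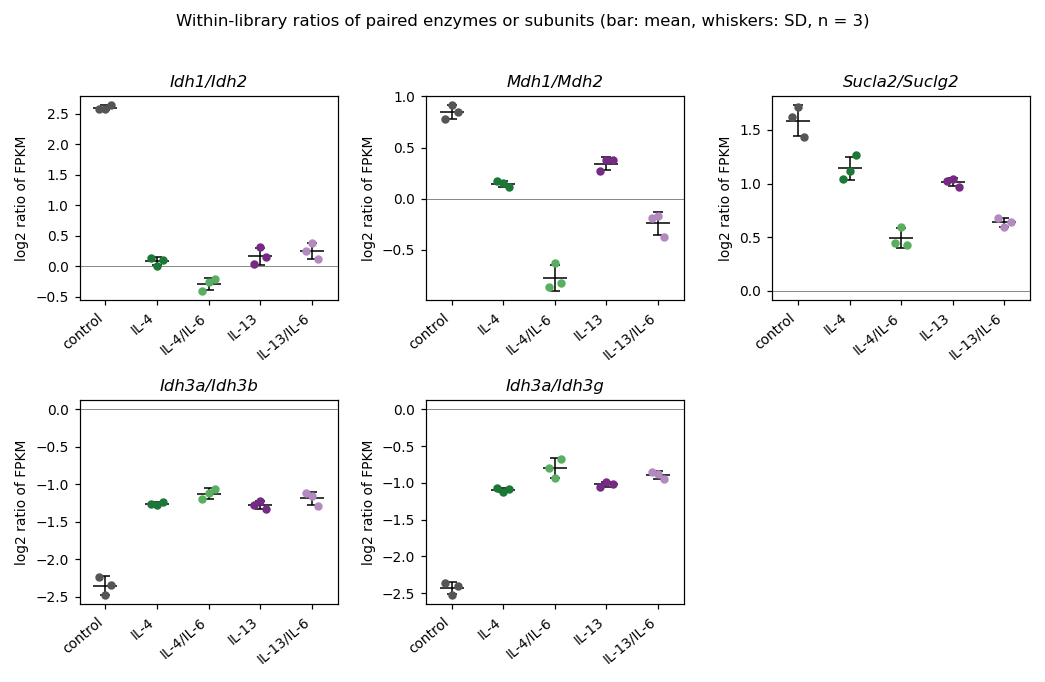
Log2 ratio of the FPKM of paired enzymes or subunits in each library, with a bar at the mean and whiskers of 1 SD (n = 3), and a line at equal FPKM where it falls in the plot. The ratio of Idh1 to Idh2 falls from 2.60 in control to 0.08 with IL-4 on the log2 scale, and Mdh1 to Mdh2 falls with each cytokine and again with IL-6.

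The rest of the cycle gives the setting of these members. Over the full list of 21 TCA cycle genes, all of which passed the filter, 12 were higher and 3 lower with IL-4 (68% of all genes were called), with a median log2 fold change of 0.20 against -0.05 over all genes. With IL-13 8 were higher and 4 lower where 60.1% of all genes were called (median 0.07 against -0.02), on adding IL-6 to IL-4 7 and 2 where 39.4% were (0.16 against 0.04), and on adding IL-6 to IL-13 3 and 1 where 25.6% were (0.08 against 0.01). Of all genes, 32.1% were called higher and 35.9% lower with IL-4, 29% and 31.1% with IL-13, 20.7% and 18.7% on adding IL-6 to IL-4, and 12.1% and 13.5% on adding it to IL-13. Over the alternatives run, the TCA cycle genes called were 13 to 21 with IL-4, 11 to 14 with IL-13, 6 to 13 on adding IL-6 to IL-4 and 3 to 5 on adding it to IL-13. A fit of the compared groups alone takes no spread from the other groups. It called 21 with IL-4, against 15 in the fit of all libraries, and 6 on adding IL-6 to IL-4, against 9. Of the 13 genes that are no members, Suclg1, the shared α subunit of succinyl-CoA synthetase, rose with IL-4 (log2 fold change 0.83, SE 0.10, adjusted p = 1.29e-06) and Suclg2 did too (log2 fold change 0.70, SE 0.07, adjusted p = 1.32e-07). Among the subunits of succinate dehydrogenase, the enzyme that itaconate inhibits, the membrane anchor Sdhc rose (log2 fold change 0.67, SE 0.10, adjusted p = 9.86e-06), the iron-sulfur subunit Sdhb rose less (0.34, adjusted p = 0.017), the catalytic Sdha fell (log2 fold change -0.17, SE 0.05, adjusted p = 0.00848, a call lost in 6 of 24 alternatives) and Sdhd was not called (0.12, adjusted p = 0.297).

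With IL-4/IL-6 over IL-4, the largest rise in the list was that of Suclg2, from 39.3, 38.6 and 36.9 to 69.1, 72.9 and 64.6 CPM (log2 fold change 0.85, SE 0.07, adjusted p = 1.59e-08). Suclg2 also rose on adding IL-6 to IL-13, from 39.04, 39.4 and 38.8 to 53.1, 52.2 and 51.2 CPM (log2 fold change 0.42, SE 0.07, adjusted p = 0.000131), and none of the libraries with and without IL-6 overlapped. Both calls held without IL-4/IL-6 replicate 2 (0.79) and IL-13 replicate 1 (0.41). Dlst and Dld, the E2 and E3 subunits that work with Ogdh, rose with IL-6 over IL-4 (0.42, adjusted p = 7.17e-06, and 0.29, adjusted p = 0.014) where Ogdh itself had a log2 fold change of 0.01. Without IL-4/IL-6 replicate 2, Dlst stayed called (0.41) and Dld did not (0.15, adjusted p = 0.098), and the call of Dld was lost in 6 of 24 alternatives in all. Over IL-13, Dlst was called (0.22, adjusted p = 0.00541), except with summed counts only (0.15, adjusted p = 0.068), and Dld was not (0.08, adjusted p = 0.608). Mdh1 fell with IL-6 in both backgrounds, by 1.32-fold over IL-4 (adjusted p = 0.00801) and 1.25-fold over IL-13 (adjusted p = 0.042). Without IL-4/IL-6 replicate 2 the decrease over IL-4 was 1.53-fold (adjusted p = 1.66e-06). The call over IL-13 was lost in 4 of 24 alternatives, among them the fit without IL-13 replicate 1 (-0.26, adjusted p = 0.113). Aco1, the cytosolic aconitase that also binds RNA as an iron sensor, rose over IL-13 (0.35, adjusted p = 0.000498), and its call over IL-4 (0.18, adjusted p = 0.034) was lost in 17 of 24 alternatives.

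**Figure D4:**
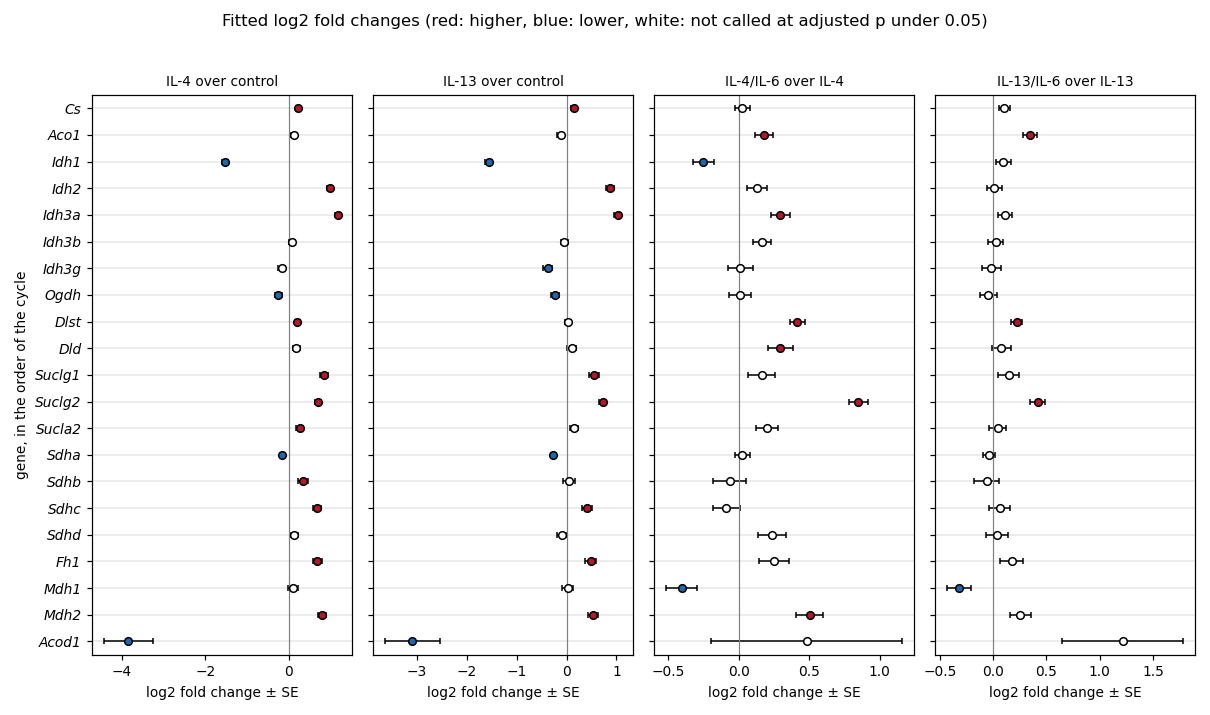
Fitted log2 fold change with its SE for TCA cycle genes and Acod1 in 4 comparisons, each panel with its own axis, with red for called higher, blue for called lower and white for not called. Idh1 and Acod1 are the points far to the left of 0 against control, and on adding IL-6 Suclg2 is the called gene farthest to the right.

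Steps that feed and drain the cycle were read from lists of neighboring enzymes and carriers. The share of all genes called, against which each count is read, was 68% with IL-4, 60.1% with IL-13, 39.4% on adding IL-6 to IL-4 and 25.6% on adding it to IL-13. Of 12 tested genes of pyruvate entry, 3 were higher and 4 lower with IL-4, led by Pdk1, a kinase that inhibits pyruvate dehydrogenase (log2 fold change 0.86, SE 0.13, adjusted p = 2.01e-05), and by Mpc1, a subunit of the mitochondrial pyruvate carrier (log2 fold change -1.28, SE 0.16, adjusted p = 2.42e-06). With IL-13 2 were higher and 4 lower, led by Pdk1 (1.14) and Mpc1 (-1.29). On adding IL-6 to IL-4, 6 of the 12 were called higher and none lower. Pdp2, a phosphatase that reactivates pyruvate dehydrogenase, led (log2 fold change 0.52, SE 0.09, adjusted p = 0.000223). The pyruvate dehydrogenase subunits Pdha1, Pdhb, Dlat and Pdhx were among those called higher. Over IL-13, 2 rose, led by Pdp2 (log2 fold change 0.55, SE 0.09, adjusted p = 0.000179).

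Of 18 tested genes of anaplerosis and mitochondrial carriers, 6 were higher and 3 lower with IL-4 (68% of all genes called), led by the aspartate-glutamate carrier Slc25a13, from 42.9, 39.95 and 36.4 CPM in control to 153, 148 and 159 (log2 fold change 1.95, SE 0.08, adjusted p = 2.82e-12), and by pyruvate carboxylase Pcx (log2 fold change -0.57, SE 0.15, adjusted p = 0.0027). With IL-13 7 were higher and 3 lower, led by the same pair (Slc25a13 1.41; Pcx -0.44). On adding IL-6 to IL-4 3 were higher and 6 lower, led by the alanine transaminase Gpt2 (log2 fold change 0.56, SE 0.10, adjusted p = 0.000172) and malic enzyme Me1 (log2 fold change -1.03, SE 0.19, adjusted p = 0.0003). Over IL-13 3 were higher and 3 lower, led by the citrate-cleaving enzyme Acly (log2 fold change 0.40, SE 0.08, adjusted p = 0.000948) and again Me1 (log2 fold change -0.78, SE 0.18, adjusted p = 0.00314). Of 4 tested genes that break down itaconate or 2-hydroxyglutarate, 3 rose with IL-4, led by Clybl, which acts on citramalyl-CoA in itaconate breakdown (log2 fold change 1.03, SE 0.14, adjusted p = 7.6e-06). With IL-13 2 rose, and on adding IL-6 to IL-4 D2hgdh, which oxidizes D-2-hydroxyglutarate, fell (log2 fold change -0.28, SE 0.10, adjusted p = 0.0346).

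Of the 7 tested genes of classical activation, 1 was higher and 3 lower with IL-4 (68% of all genes called), led by Ptgs2, cyclooxygenase 2 (log2 fold change 2.79, SE 0.45, adjusted p = 3.63e-05), and the IL-12 subunit Il12b, which held 17 to 24 raw counts in the control libraries and at most 2 in any treated library, too few for a fold. With IL-13 2 were higher and 3 lower, led by the same genes (Ptgs2 1.84). On adding IL-6, Tnf fell over IL-4 (log2 fold change -0.66, SE 0.16, adjusted p = 0.00377) and over IL-13 (log2 fold change -0.48, SE 0.15, adjusted p = 0.0247), and Ptgs2 rose over IL-13 (log2 fold change 1.93, SE 0.34, adjusted p = 0.000311) at levels of 1.61, 1.01 and 1.34 and 5.03, 4.45 and 5.67 CPM.

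The genes most like Acod1 across the 15 libraries, by Pearson's r of log2 CPM, were Il1a (r = 0.953), 2210011C24Rik (0.916) and Fpr1 (0.913), whose place Gbp4 (0.918) took with a prior count of 0.5 in place of 2. Over the 12 treated libraries alone the values of the first 3 were 0.885, 0.814 and 0.786. Il1a, the cytokine IL-1α, had a mean of 7.81 CPM in control and at most 1.33 CPM in a treated group. The genes most like Idh1, the member with the next widest range of group means, were Bnip3l (r = 0.992), Mrvi1 (0.985) and Tmem51 (0.984), which fell to 0.7895, 0.758 and 0.498 over the treated libraries, and with the smaller prior count Txndc16 (0.984) took the place of Mrvi1. The correlations over all 15 libraries include the step between control and treated libraries, which the markers of other marrow cells given above share. None of the correlations carries a test.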

How the data were processed

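Total RNA of 15 BMDM libraries (5 groups of 3) was sequenced by a service company. The authors deposited raw counts, whole numbers without normalization, of 53465 genes for every library, and FPKM of 26080 genes, for which the authors scaled each count by the library's sum and by 1 fixed length per gene. The submitters' processing notes name CASAVA, Bowtie2 2.2.3, HISAT2 2.1.0, TopHat2, DESeq2 and GRCm38 with no role. The counting tool, its annotation and its use of strand were not given in the sources used here.

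Counts were tested with edgeR 4.0.16 in R 4.3.3 in one fit of all 15 libraries with 1 mean per group (filterByExpr with a minimum count of 10, TMM factors, quasi-likelihood F-test), and p-values were Benjamini-Hochberg adjusted over the 13938 genes tested. A gene was called at an adjusted p under 0.05, the SE was the log2 fold change divided by the root of F, and 95% intervals are 1.96 SE to either side. Normalized CPM compare groups, and FPKM compare genes. For the likeness of genes, log2 CPM had a prior count of 2. On simulated counts for IL-4 over control (13519 genes tested), 83.8% of 99 changes of 2-fold and 91% of 100 changes of 4-fold were recovered. Unchanged genes made up 4.4% of the calls. The simulation changed only these few genes, up and down alike, and gave each gene the same spread in all groups. It therefore does not cover the many changes or the unequal spread of these data. The members, the gene lists and the tests were chosen with earlier results of these data known. Named genes are the 9 members, the 21 TCA cycle genes, the called gene with the largest change in each direction of each other list, the response checks Retnla, Chil3 and Socs3 and the 3 genes most like Acod1 and Idh1. Mertk, Fcgr1, Mmp8, Irf1, Il1b, Nos2, Pdha1, Pdhb, Dlat and Pdhx were added to these after their values were seen. Genes of the marker lists are named for the check of cell types, and Slc25a1 because its IL-6 effect differed between backgrounds. Some genes that these rules name, and an allele, are not reported here. In response checks that the results do not otherwise use, Retnla had 0, 0 and 0 CPM in control and 668, 765 and 753 with IL-4, and Chil3 had 178, 186 and 167 and 537, 554 and 554. Replicates of a group differed by more than sampling noise in every pair. The labels do not say whether replicate numbers pair the libraries. Deviations of same-numbered libraries from their group means correlated between -0.28 and 0.16, over 0.1 in 3 of 30 pairs. Those of different-numbered libraries correlated between -0.35 and 0.39, over 0.1 in 7 of 60 pairs. With 3 libraries per group, these values cannot decide whether the numbers pair them.

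Alternatives were DESeq2 1.42.0, 3 other scalings, 2 other filters, a replicate block, a fit of the compared groups alone, leaving out each library, a prior count of 0.5 and, chosen after seeing the data, removal of each library's trend with gene length. Precision rests on 17001350 to 18918690 counts per library.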

Additional observations from a re-analysis of the deposited data

Results flagged for a closer look

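Several genes of the lists answered IL-6 differently with IL-4 than with IL-13, by the interaction test in edgeR (adjusted p under 0.05), and each is given as the log2 fold change on adding IL-6 to IL-4 minus that on adding it to IL-13. Suclg2, the GTP-forming β subunit of succinyl-CoA synthetase, rose more with IL-4 (0.85 against 0.42, difference 0.43, SE 0.09, adjusted p = 0.00763). Dlat, the E2 subunit of pyruvate dehydrogenase, differed by 0.31 (adjusted p = 0.0283), from 65.3, 64.7 and 66.6 to 85.97, 88.4 and 89.8 CPM over IL-4 and from 58.1, 62.2 and 62.7 to 63.7, 68.8 and 65.5 CPM over IL-13. The citrate carrier Slc25a1 differed by -0.37 (adjusted p = 0.0268), having risen over IL-13 (0.36) where it gave -0.01 over IL-4. The aspartate-glutamate carrier Slc25a13 differed by -0.51 (adjusted p = 0.00857), having fallen over IL-4 (-0.70). Ptgs2 differed by -1.96 (adjusted p = 0.0152) at levels no higher than 5.67 CPM in any library. The response check Chil3 differed by 0.59 (adjusted p = 0.000637), having risen more over IL-4 (1.49 against 0.90). No member passed this test, and 7.64% of all genes did.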

How the results depend on the processing

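The direction and the call of Idh1, Idh2, Idh3a, Fh1, Mdh2 and Acod1 against control were kept under every alternative run, and those of Idh1, Idh3a and Mdh2 on adding IL-6 to IL-4 were kept too. Under the replicate block the members called were 9, 8, 3 and 0 in the first 4 comparisons and 0 in the interaction, as without it. In the interaction, 1 member (Idh1) was called under DESeq2, upper-quartile factors, summed counts only, a filter of at least 1 CPM in 3 libraries and removal of the length trend, and 2 without a filter. With IL-6 added to IL-13, 2 members were called without a filter and 1 with the length trend removed. In IL-4 over IL-13 these settings gave 2 and 1. In IL-4/IL-6 over IL-13/IL-6, 3 were called in a fit of those groups alone. With the length trend removed 5 were called when IL-6 was added to IL-4. Of the 22 calls of TCA cycle genes that are no members, 1 was lost under the replicate block, 1 with DESeq2's size factors in edgeR, 3 with upper-quartile factors, 5 with summed counts only, 3 without a filter, 3 in fits of the compared groups alone and 39 of 330 over the fits without 1 library. Leaving out each library in turn gave 3 to 5 members on adding IL-6 to IL-4 (5 without IL-4/IL-6 replicate 3), 0 to 2 on adding it to IL-13, 0 to 2 in IL-4 over IL-13, 3 to 7 in IL-4/IL-6 over IL-13/IL-6 and 0 to 1 in the interaction. The signs that turned belonged to changes that were not called, near 0 except for Acod1. On adding IL-6 to IL-4, Cs gave log2 fold changes of -0.0613 and Ogdh -0.0789 with upper-quartile factors, -0.0711 and -0.0860 with summed counts only, -0.000583 and -0.0173 without a filter, and -0.0138 and -0.0308 in a fit of those groups alone. When IL-6 was added to IL-13, Idh2 gave -0.0255 with upper-quartile factors and -0.0559 with summed counts only, and Sucla2 gave -0.0242 with the latter. With each library left out, on adding IL-6 to IL-4 Cs ran from -0.0166 to 0.0356, Ogdh from -0.0669 to 0.0818 and Acod1 from -0.81 to 0.996, on adding it to IL-13 Idh2 ran from -0.0364 to 0.0474, and in the interaction Fh1 ran from -0.0628 to 0.17 and Ogdh from -0.0156 to 0.14. The causes were not tested. Summed counts alone moved the median of all genes by -0.146 with IL-4/IL-6 over control and by -0.0988 with IL-4/IL-6 over IL-4 alone. Acod1 held 19 to 366 counts in treated libraries, and its SD there was 50.4% to 103% of the group mean of normalized CPM. No change in it on adding IL-6 was called with all libraries and the filter.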
